A study of Mus musculus with 24 samples.

Results

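The 9 genes described here are markers of B cells and of the lymphoid follicle, measured in mouse muscle: Cd79a, Cd79b, Ighd, Ms4a1, Cd22, Blk, Pax5, Cxcr5 and Cxcl13. They were chosen as a list of names, with earlier results of these data known, and all 9 were found once by symbol among the 54532 genes of the count files. RNA of the left gastrocnemius muscle, a calf muscle, was sequenced from C57/BL6 mice of WT genotype in 6 groups of 4 libraries. The ages of the animals are not given in the sources used here. Female and male controls were sedentary and received 2 injections of saline of pH 7.2 ± 0.1 into that muscle, 20 µl each and 5 days apart. Female and male sedentary pain animals received the same number and volume of injections at pH 5.0 ± 0.1, with 6 minutes of electrically evoked contraction of the muscle before the last injection. Female and male active pain animals had running wheels for 8 weeks and then went through the same pain model. All 24 libraries carry a label of 24 h. The controls had neither acid nor contraction, so acid and contraction cannot be told apart, and no active animals without pain are among the groups, so running is seen only within the pain model. The same 4 controls of a sex served both pain groups of that sex. Where the text compares groups, p-values measure the spread between libraries numbered as replicates, and the labels do not spell out that each was a separate animal.

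B cells recognise antigen through the B cell receptor, a surface antibody held by a pair of signalling chains, and they settle in follicles of lymph nodes and spleen. The chemokine CXCL13 draws cells that carry the receptor CXCR5 into those follicles. It is made by follicular stromal cells and also by macrophages in inflamed tissue. Resting skeletal muscle holds few B cells, so low levels of these genes are the usual background there.

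The members fall into 4 roles. Cd79a (ENSMUSG00000003379, chr7:24897381-24902197, plus strand) and Cd79b (ENSMUSG00000040592, chr11:106311341-106314762, minus strand) encode the signalling chains of the receptor, and Ighd (ENSMUSG00000104213, chr12:113406604-113416324, minus strand) is the constant region of IgD on naive B cells. Ms4a1 (ENSMUSG00000024673, chr19:11249675-11266241, minus strand) encodes the surface protein CD20. Cd22 (ENSMUSG00000030577, chr7:30865402-30880342, minus strand) encodes an inhibitory co-receptor, and Blk (ENSMUSG00000014453, chr14:63372836-63417037, minus strand) a Src family kinase of B cells. Pax5 (ENSMUSG00000014030, chr4:44524757-44710487, minus strand) is the transcription factor that fixes B cell identity. Cxcr5 (ENSMUSG00000047880, chr9:44511787-44561877, minus strand) and Cxcl13 (ENSMUSG00000023078, chr5:95956951-95961068, plus strand) are the receptor and ligand of follicle homing. These are positions of whole genes in GENCODE M21 on GRCm38. Exons of Cd22 overlap Gm29439 on the opposite strand, those of Pax5 overlap Gm12462 and 5730488B01Rik, and those of Cxcr5 overlap Bcl9l. How the counting used strand is not given in the sources used here, so reads of those 3 members and their overlapping genes cannot be told apart.

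Promoter sequence from RefSeq (GRCm38.p6) was matched for 4 of the 9 members, Cd79a, Cd22, Pax5 and Cxcl13. The stretches upstream of 3 of them are shown because they contrast receptor genes of B cells with the follicle chemokine, which followed a different pattern over the libraries. They run 5′ to 3′ on the gene's strand and leave out exon bases, and capitals mark a motif found by search of both strands. The Cd79a stretch lies at chr7:24897247-24897380, that of Cd22 at chr7:30879029-30879176 and that of Cxcl13 at chr5:95956689-95956938. The RefSeq start used for Cd22 lies inside the GENCODE gene, whose outer end is farther upstream, so the Cd22 stretch is upstream of the RefSeq start only.
Cd79a: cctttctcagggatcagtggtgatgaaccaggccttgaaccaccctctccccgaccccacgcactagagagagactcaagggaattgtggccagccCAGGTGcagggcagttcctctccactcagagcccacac
Cd22: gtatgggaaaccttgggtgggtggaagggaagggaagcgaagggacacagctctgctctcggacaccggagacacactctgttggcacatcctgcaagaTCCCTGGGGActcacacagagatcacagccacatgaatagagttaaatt
Cxcl13: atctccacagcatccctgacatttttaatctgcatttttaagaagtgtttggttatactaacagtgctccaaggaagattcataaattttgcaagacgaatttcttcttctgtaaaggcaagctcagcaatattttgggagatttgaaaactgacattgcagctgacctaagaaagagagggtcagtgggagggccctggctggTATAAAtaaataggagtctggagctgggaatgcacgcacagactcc

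The capitals mark the E-box CAGGTG, bound by E proteins, in Cd79a, the EBF1 palindrome (TCCC, any 2 bases, GGGA) in Cd22 and the TATA box TATAAA in Cxcl13. EBF1 is a transcription factor of the B lineage. In the full 250 bases upstream, Cd79a also held the ETS core AGGAAGT and Cd22 also the E-box, and Pax5 held none of the 5 motifs searched, the fifth being the octamer ATTTGCAT. Among 32851 RefSeq promoter windows of that length, 0.779% held the EBF1 palindrome, 7.69% the ETS core, 1.6% the octamer, 17.2% the E-box and 12.4% the TATA box. A match describes the letters and is not a measured binding site.

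The 24 libraries held 17612139 to 34039699 counts, and values below are CPM, a gene's reads scaled to a common library total with TMM, a factor that corrects for differences in composition. No 2 libraries of a group held identical counts. On the first principal component, which held 57.4% of the variance over all tested genes, the 4 female sedentary pain libraries lay at 28.6, 107, 97.9 and 153, and male sedentary pain replicate 1 lay at 93.3. Female sedentary pain replicates 3 and 4 stood apart in the members. In 7 of the 9 members both of them were above each of the other 22 libraries, the exceptions being Pax5 and Cxcl13. Of all 27756 genes with a read in any library, 10.2% showed the same. The main tests of the members and the list counts that rest on them are given with and without them, a choice made after seeing the data. Tests of single genes of the lists are given only with them. In bulk muscle, fewer cells of a type and less RNA per cell cannot be told apart.

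Cd79b reached the highest level of the B cell genes in single libraries. In females, replicates 1 to 4 had 0.0433, 0.252, 0.117 and 0.489 CPM of Cd79b in controls, 0.302, 0.759, 3.08 and 6.53 CPM in sedentary pain, and 0.343, 0.494, 0.654 and 0.517 CPM in active pain. In males they had 0.58, 0.21, 0.441 and 0.346 CPM in controls, 0.605, 0.268, 0.507 and 0.4 CPM in sedentary pain, and 0.603, 0.36, 0.308 and 0.0791 CPM in active pain. Replicates 3 and 4 of female sedentary pain, with 95 and 185 reads, were the only libraries above 1 CPM. Replicate 1 of that group was within the range of the female controls, so the groups overlapped.

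Cd79a followed its partner chain. Female replicates 1 to 4 had 0.0433, 0.126, 0.234 and 0.428 CPM of Cd79a in controls, 0.265, 0.409, 1.94 and 2.93 CPM in sedentary pain, and 0.098, 0.529, 0.385 and 0.273 CPM in active pain. Male replicates had 0.205, 0.21, 0.407 and 0.189 CPM in controls, 0.161, 0.301, 0.464 and 0.146 CPM in sedentary pain, and 0.474, 0.36, 0.171 and 0.198 CPM in active pain. Replicates 1 and 2 of female sedentary pain lay within the range of the female controls, and the 3 male groups overlapped throughout.

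Ighd was higher in the same pair of libraries, by a smaller step. In females Ighd was at 0.13, 0.0841, 0.468 and 0.336 CPM in controls, 0.189, 0.467, 1.0 and 1.59 CPM in sedentary pain and 0.245, 0.494, 0.308 and 0.486 CPM in active pain. In males it ranged from 0.0699 to 0.509 CPM in controls, from 0.323 to 0.507 CPM in sedentary pain and from 0.274 to 0.752 CPM in active pain. The groups overlapped in both sexes.

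Cd22, the inhibitory co-receptor, had at most 3 reads in a female control library. Its female values were 0.0, 0.0421, 0.0 and 0.0916 CPM in controls, 0.189, 0.7, 1.85 and 2.79 CPM in sedentary pain, and 0.147, 0.318, 0.192 and 0.213 CPM in active pain. The male values were 0.205, 0.0, 0.102 and 0.0629 CPM in controls, 0.484, 0.201, 0.169 and 0.109 CPM in sedentary pain, and 0.129, 0.2, 0.239 and 0.158 CPM in active pain. Cd22 thus did not overlap between female controls and either female pain group, and all 4 sedentary pain libraries, not the outlying pair alone, exceeded the highest control. The control counts were 0, 1, 0 and 3 reads, so these levels rest on very few molecules.

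The other 4 B cell members were barely detectable outside the same pair of libraries. Ms4a1 had 29 and 15 reads in female sedentary pain replicates 3 and 4 and at most 10 in the other 22 libraries, Blk 10 and 19 against at most 4, and Cxcr5 21 and 13 against at most 5. Pax5 had 9 and 12 reads there, and female active pain replicate 2 had 10. Cxcr5 did not overlap between female controls, at 0, 0.0421, 0.039 and 0.0305 CPM, and sedentary pain, at 0.113, 0.175, 0.68 and 0.459 CPM. Ms4a1 was at 0 reads in female control replicate 3 and female sedentary pain replicate 2, and Pax5 was at 0 in 3 libraries, among them female sedentary pain replicate 1.

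Cxcl13 differed from the other members in where it was high. Its female values were 0.26, 0.505, 0.468 and 1.22 CPM in controls, 3.59, 0.876, 4.99 and 2.12 CPM in sedentary pain, and 0.735, 0.812, 0.885 and 0.851 CPM in active pain. Its male values were 0.205, 0.419, 0.746 and 0.472 CPM in controls, 0.848, 0.803, 3.12 and 3.09 CPM in sedentary pain, and 1.42, 0.92, 0.821 and 3.2 CPM in active pain. Here replicate 1 of female sedentary pain, low in the B cell genes, was second highest, and males of both pain groups reached more than 3 CPM. In males neither pain group overlapped the controls, whereas in females replicate 2 of sedentary pain lay below the highest control.

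**Figure D1:**
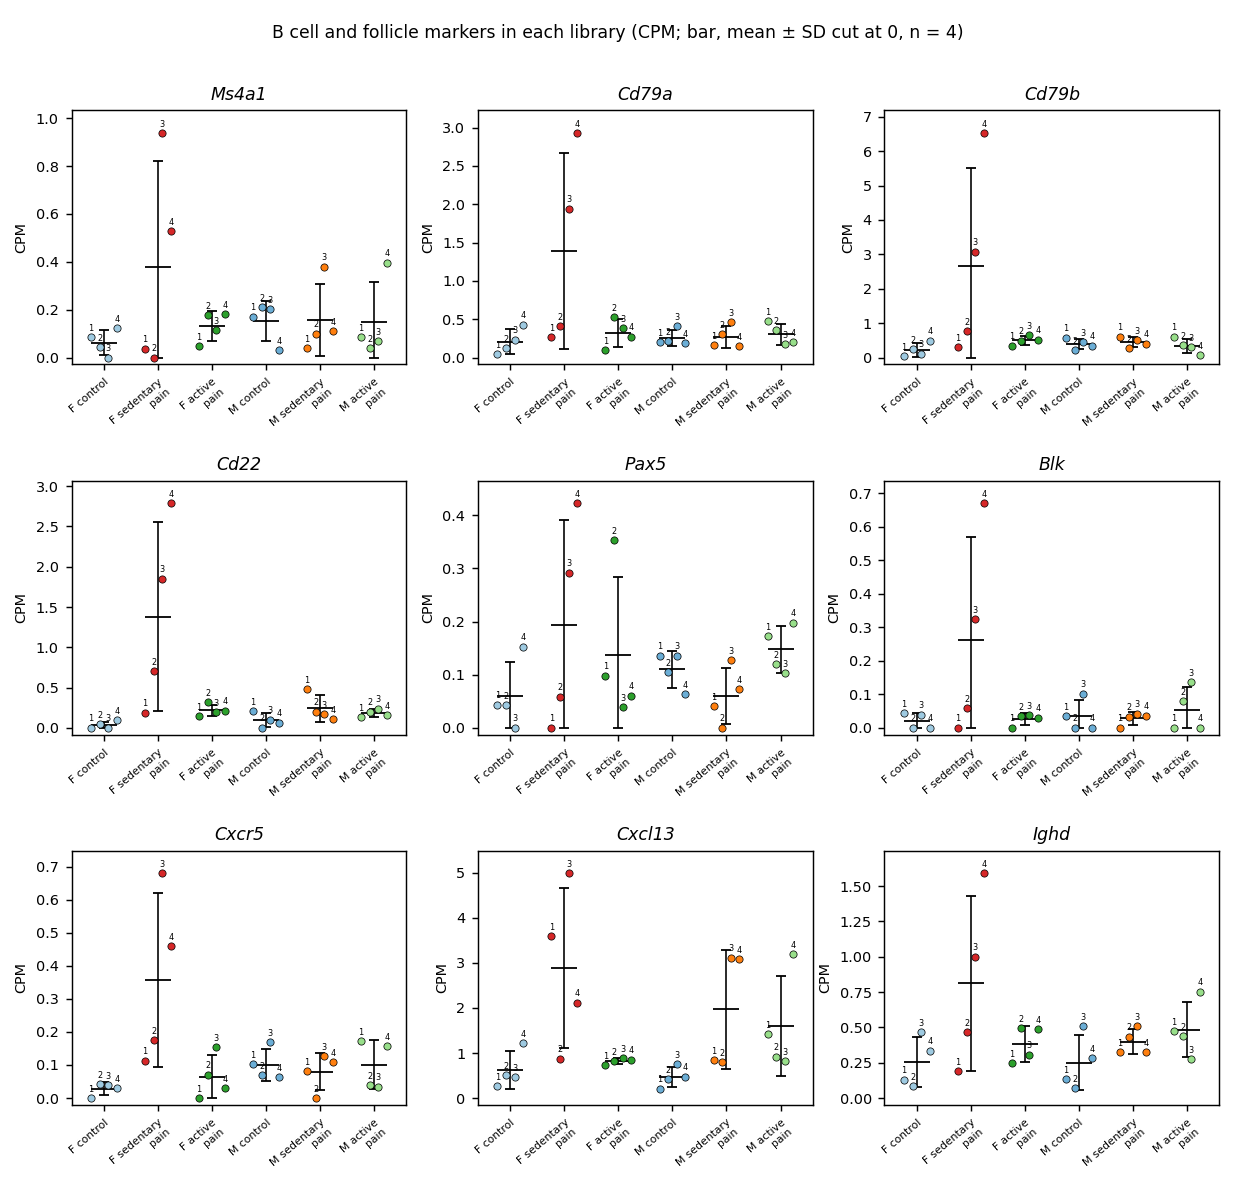
Each panel shows 1 marker, with CPM on a linear axis from 0, every library as a point numbered by its replicate, and the mean ± SD (n = 4) of each group as a bar. Replicates 3 and 4 of female sedentary pain are the highest libraries for most B cell genes (6.53 CPM at most, for Cd79b), while Cxcl13 is also above 3 CPM in other libraries of both sexes.

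Per kilobase of exon, Cxcl13 had the highest mean level of the 9 members in each of the 6 groups. In female controls the order was Cxcl13 at 0.534 ± 0.365 CPM per kb (SD, n = 4), Cd79b at 0.157 ± 0.137, Cd79a at 0.143 ± 0.114 and Ighd at 0.134 ± 0.0946, with the other 5 at 0.0101 or less. The last 3 of these 4 differed from each other by less than their SD. In female sedentary pain, the means were 2.52 ± 1.55 CPM per kb for Cxcl13, 1.86 ± 1.99 for Cd79b, 0.951 ± 0.877 for Cd79a, 0.427 ± 0.325 for Ighd and 0.274 ± 0.231 for Cd22, and Pax5 was lowest at 0.0218 ± 0.0224. From Cd79b to Cd22 each mean lay within the SD of the gene before it. By the SD of the lower gene, Cd79b lay further from Cd79a than that, and Cd79a further from Ighd. Pax5 was last in the 3 male groups as well, at 0.0124 ± 0.00391 in controls, 0.00677 ± 0.00604 in sedentary pain and 0.0167 ± 0.00502 CPM per kb in active pain.

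The first comparison set the muscle pain model against control in sedentary females. Both receptor chains and Cxcl13 rose in sedentary pain against control. Mean Cd79a went from 0.208 ± 0.166 to 1.39 ± 1.28 CPM (SD, n = 4), a log2 fold change of 2.65 ± 0.80 (SE, edgeR adjusted p = 0.0273). Mean Cd79b went from 0.225 ± 0.196 to 2.67 ± 2.85 CPM, a log2 fold change of 3.47 ± 0.87 (edgeR adjusted p = 0.0133). Mean Cxcl13 went from 0.614 ± 0.42 to 2.89 ± 1.78 CPM, a log2 fold change of 2.20 ± 0.52 (edgeR adjusted p = 0.0108). Ighd had a log2 fold change of 1.63 ± 0.63, from 0.255 ± 0.18 to 0.812 ± 0.618 CPM, and missed the threshold (edgeR adjusted p = 0.0626). These were the 4 members that passed the low-count filter, and a gene could pass it through the group in which it was high. Cd79a passed it on female sedentary pain replicates 3 and 4 (60 and 83 reads), female active pain replicate 2 (15) and female control replicate 4 (14). Its test thus depended on the libraries where it was high, and its rise is to be read with that limit. Of all 14511 genes tested in females, 33.5% changed in either direction and 19.6% rose, which is the background for the 3 members that rose.

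The 5 members below the filter had no test in that fit. Their reads summed over the 4 libraries, set against those of the 4 controls and scaled for depth, gave a ratio of 39.2 for Cd22 (153 against 4 reads, exact Clopper-Pearson 95% interval 15.0 to 146.0) and 15.4 for Blk (30 against 2 reads, 3.9 to 133.0). The ratio was 13.6 for Cxcr5 (40 against 3 reads, 4.35 to 69.0), 6.58 for Ms4a1 (45 against 7 reads, 2.95 to 17.3) and 3.22 for Pax5 (22 against 7 reads, 1.33 to 8.92). These intervals cover counting error only and not the spread between libraries. Most of the reads came from replicates 3 and 4. In replicates 1 and 2 alone the ratio to the controls was 10.3 for Cd22 (17 against 4 reads, 3.35 to 41.9) and 4.83 for Cxcr5 (6 against 3 reads, 1.03 to 29.8). It was 0.345 for Ms4a1 and for Pax5 (1 against 7 reads each, 0.00765 to 2.68), and Blk had 1 read against 2. When no gene was filtered, Cd22 (edgeR adjusted p = 0.00394), Cxcr5 (0.0166) and Blk (0.0481) passed as well, Ms4a1 (0.101) and Pax5 (0.318) did not, and 6 of 9 members rose, where 16.2% of all genes changed in either direction. Cd22 and Cxcr5 were the 2 of 9 members whose groups did not overlap. Over all 26069 genes with a read in a female library, 9.85% did not overlap in that direction.

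The calls for the receptor chains rested on a few libraries. Without female sedentary pain replicates 3 and 4, none of the 4 tested members passed: the log2 fold change was 0.59 for Cd79a (edgeR adjusted p = 0.605), 1.11 for Cd79b (0.278) and 1.84 for Cxcl13 (0.0678), while 1440 of 15015 genes still did. Cd79a alone was lost without female sedentary pain replicate 4 (2.03, edgeR adjusted p = 0.0914), without female control replicate 1 (2.36, 0.0655) and without female control replicate 2 (2.50, 0.0716). Cd79b kept its call when any 1 library was left out, and its log2 fold change was smallest, 2.56 (edgeR adjusted p = 0.0428), without female sedentary pain replicate 4. It was largest, 4.21, without female control replicate 4, where that of Cxcl13 was 2.79 (edgeR adjusted p = 0.0105) and that of Cd79a 3.29 (0.0324). Ighd passed without female sedentary pain replicate 1 (1.98, edgeR adjusted p = 0.0138) or without female control replicate 3 (2.05, 0.0478), and 5 members, Cd22 included, were then called. Cd22 entered the test when any 1 library other than female sedentary pain replicates 2, 3 and 4 was left out. Those 3 held 12, 57 and 79 reads of Cd22 and the other female libraries 0 to 9, so it entered through the group where it was high and its rise in these fits is no separate result. With the replicate number as a block Ighd passed as well (1.55, edgeR adjusted p = 0.0475), and so it did with DESeq2 (1.66, adjusted p = 0.0430) and with a term for the library-number split described next (1.58, edgeR adjusted p = 0.0279). Numbers in the library names put replicates 1 and 2 apart from replicates 3 and 4, and what they stand for is not given in the sources used here. In replicates 1 and 2 alone 0 members rose in this comparison. The share of all genes is not given for that subset, so its 0 is no result about the members. In replicates 3 and 4 alone Cd79a, Cd79b, Cxcl13 and Ighd rose, where 22.4% of all 15401 genes tested changed in either direction. In the latter subset Ms4a1, Cd22, Blk and Cxcr5 passed the filter through the outlying pair alone, so that their calls were fixed by the filter. Cd79a also needed that pair to pass it there, beside 14 reads in female control replicate 4, so its call has the same limit.

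Females that had run before the pain model were compared with the same controls. None of the 4 tested members differed, and of all 14511 genes 0 did (0%, smallest edgeR adjusted p = 0.565; DESeq2 called 125 genes and no member). The log2 fold changes were 0.58 ± 0.85 for Cd79a, 1.09 ± 0.89 for Cd79b, 0.39 ± 0.53 for Cxcl13 and 0.58 ± 0.66 for Ighd (SE, edgeR adjusted p between 0.837 and 0.867). Means of the active group were 0.321 ± 0.182 CPM for Cd79a, 0.502 ± 0.128 for Cd79b, 0.821 ± 0.0648 for Cxcl13 and 0.383 ± 0.126 for Ighd (SD, n = 4). No member reached an unadjusted p under 0.05, where 7.03% of all genes did. Cd22 was the 1 member whose groups did not overlap, with 3, 9, 5 and 7 reads in active pain, beside 2.31% of all genes in that direction.

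The direct comparison of the female pain groups asked what differs when running preceded the pain model. Cxcl13 was the 1 member that fell, from 2.89 ± 1.78 CPM in sedentary to 0.821 ± 0.0648 CPM in active pain (log2 fold change -1.81 ± 0.51 SE, edgeR adjusted p = 0.0431). Cd79a (-2.07 ± 0.76, edgeR adjusted p = 0.0883), Cd79b (-2.38 ± 0.80, 0.0692) and Ighd (-1.05 ± 0.60, 0.238) were lower without passing. Of all 14511 genes 11.9% changed and 9.41% fell. The Cxcl13 call changed with single libraries while its fold moved little in most cases. It was lost without female active pain replicate 1, 2, 3 or 4 (-1.77, -1.82, -1.87 and -1.84, edgeR adjusted p = 0.0970, 0.108, 0.0620 and 0.0979), without female sedentary pain replicate 3 or 4 (-1.43 and -1.95, 0.0981 and 0.0945), and without female control replicate 2 or 3 (-1.82 and -1.80, 0.0527 and 0.0542). It was also lost with the replicate block (-1.70, edgeR adjusted p = 0.0681) and held with the library-number term (-1.78, 0.0255). Without female sedentary pain replicate 1, Cxcl13 and 3 further members were called, Cd79a at -2.44 (edgeR adjusted p = 0.0214), Cd79b at -2.79 (0.0105) and Cd22. Cd79b fell beside Cxcl13 without female sedentary pain replicate 2 (-2.72, edgeR adjusted p = 0.0496). Cd22 was called without female sedentary pain replicate 1 and without female control replicate 1, 3 or 4, where it entered the test through the sedentary pain group, so that its fall was fixed by the filter. DESeq2 called Cd79a (-2.09, adjusted p = 0.0468), Cd79b (-2.40, 0.0191) and Cxcl13 (-1.81, 0.00626). The 11.9% and 9.41% above are from edgeR, and the share of all genes that DESeq2 called is not given here. These 3 calls thus stand without their background. Cd79a passed the filter in that fit only with the help of female sedentary pain replicates 3 and 4. Without both female sedentary pain replicates 3 and 4 0 members passed: the log2 difference was -1.45 for Cxcl13 (edgeR adjusted p = 0.309), 0.0071 for Cd79a, -0.013 for Cd79b and 0.32 for Ighd.

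In males no member passed in any comparison by edgeR. Of 14404 genes tested, 0 (0%) passed in sedentary pain against control (smallest edgeR adjusted p = 0.296), 0 (0%) in active pain against control (0.465) and 0 (0%) between the pain groups (1). Cxcl13 came nearest: its mean was 0.46 ± 0.223 CPM in controls, 1.97 ± 1.32 CPM in sedentary pain and 1.59 ± 1.11 CPM in active pain (SD, n = 4). Against control the log2 fold change was 2.10 ± 0.62 in sedentary pain (SE, edgeR adjusted p = 0.318) and 1.78 ± 0.62 in active pain (0.552). DESeq2 called Cxcl13 in the first of these (2.11, adjusted p = 0.0387) and 270 genes in all, against 127 genes and 0 members in active pain against control and 0 genes between the pain groups. Cxcl13 was the 1 tested member with an unadjusted p under 0.05 in either, beside 8.84% of all genes in sedentary and 7.25% in active pain. It was also the 1 member whose groups did not overlap in either, beside 2.69% and 4.29% of the 25576 genes with a read in a male library in that direction.

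The 3 tested B cell genes gave no call in males, and their groups overlapped. The log2 fold changes in sedentary pain against control were 0.09 for Cd79a, 0.18 for Cd79b and 0.67 for Ighd, with edgeR adjusted p-values of 0.917, 0.84 and 0.641. In active pain against control they were 0.23, -0.23 and 0.93, with edgeR adjusted p-values of 0.791, 0.806 and 0.634. Between the male pain groups the tested members had differences of 0.14 for Cd79a, -0.41 for Cd79b, -0.32 for Cxcl13 and 0.26 for Ighd, and 0 had an unadjusted p under 0.05, beside 0.84% of all genes.

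**Figure D2:**
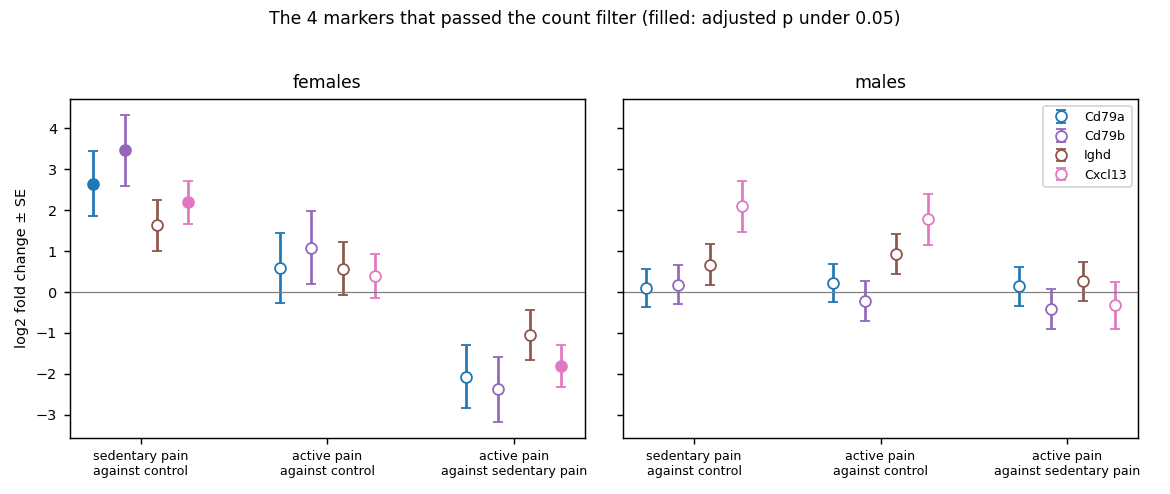
Log2 fold changes (vertical axis) with their SE of the 4 markers that passed the low-count filter, for the 3 comparisons of each sex. Filled symbols passed an adjusted p of 0.05: Cd79a (2.65), Cd79b (3.47) and Cxcl13 (2.20) in female sedentary pain against control and Cxcl13 (-1.81) between the female pain groups. No symbol is filled in males. Cd79a passed the filter in females only with the help of female sedentary pain replicates 3 and 4.

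Averaged over the sexes, 8 libraries against 8, which is not a comparison the study's design states, 5 members passed the filter and all 5 were called higher in sedentary pain. Cd22 had a log2 fold change of 3.20 ± 0.60 (SE, edgeR adjusted p = 0.000753). It reached 10 reads in 4 sedentary pain libraries alone, with 12, 57 and 79 in females and 12 in a male, so it was tested only through the group where it was high, and its call is no support for a rise. For the other 4 members the log2 fold change was 2.15 ± 0.42 for Cxcl13 (SE, edgeR adjusted p = 0.00111), 1.83 ± 0.52 for Cd79b (0.0120), 1.38 ± 0.49 for Cd79a (0.0349) and 1.15 ± 0.42 for Ighd (0.0377). Of 15103 genes tested, 37.4% changed and 22.5% rose. Cxcl13 and Cd79b kept their calls when any 1 of the 24 libraries was left out. Cd79a was lost (edgeR adjusted p from 0.0549 to 0.106) without female sedentary pain replicate 3 or 4, male sedentary pain replicate 3, female control replicate 1 or 2, or male control replicate 1, 2 or 4, and each of these left 3 members. Ighd was lost (edgeR adjusted p from 0.0505 to 0.118) without any of the same 8 libraries and without male sedentary pain replicate 1 or 2. Without both female sedentary pain replicates 3 and 4, Cxcl13 still rose (1.97, edgeR adjusted p = 0.00907), Cd22 was called on sedentary pain libraries again (2.34, 0.0118), and the other 3 tested members did not pass.

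For active pain against control over both sexes, 0 of the 5 tested members passed, beside 5 of all genes (0.0331%). Cd22 (1.69 ± 0.64 SE, edgeR adjusted p = 0.229) and Cxcl13 (1.08 ± 0.42, 0.241) had an unadjusted p under 0.05, as did 15.5% of all genes. Between the pain groups over both sexes 0 members and 0 genes (0%) passed in edgeR, and DESeq2 called 1276 genes and 0 members. Cd22 (-1.51 ± 0.51 SE, edgeR adjusted p = 0.0964), Cd79b (-1.40 ± 0.50, 0.113) and Cxcl13 (-1.06 ± 0.40, 0.127) had an unadjusted p under 0.05, as did 21.7% of all genes. Without female sedentary pain replicate 1, Cd79b (-1.58, edgeR adjusted p = 0.0236) passed in that last comparison, as did Cd22, which is in this fit only through sedentary pain libraries.

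The study set the sexes side by side, so the difference of each contrast between them was tested directly, coded as the male effect minus the female effect. In sedentary pain against control it was -3.33 ± 1.03 for Cd79b (SE, edgeR adjusted p = 0.432), -3.74 ± 1.25 for Cd22 (0.432), -2.59 ± 0.98 for Cd79a (0.447), -0.99 ± 0.84 for Ighd (0.734) and -0.13 ± 0.85 for Cxcl13 (0.963). No member and no gene (0%) passed in edgeR, DESeq2 called 15 genes and 0 members, and the first 3 members had an unadjusted p under 0.05, as did 9.57% of all genes. The Cd79a and Cd79b calls in females and their absence in males are therefore not shown to differ by sex. In replicates 3 and 4 alone the difference of Cd79b (-3.71, edgeR adjusted p = 0.0365), which rests on the outlying pair of female sedentary pain, passed, beside 8.51% of all genes. That of Cd22 was called as well, on a gene that entered the test there through the outlying pair alone. In replicates 1 and 2 alone no member passed, and the share of all genes is not given for that subset. Without both female sedentary pain replicates 3 and 4 the differences were -0.94 for Cd79b, -2.03 for Cd22 and -0.50 for Cd79a, and none passed (edgeR adjusted p = 0.988 for each). For active pain against control 0 members and 0 genes (0%) passed in edgeR, DESeq2 called 3 genes and 0 members, and 0 members reached an unadjusted p under 0.05, beside 2.03% of genes. For active against sedentary pain 0 members and 0 genes (0%) passed in edgeR, DESeq2 called 133 genes and 0 members, and Cd79a (2.24 ± 0.96 SE, edgeR adjusted p = 0.301) and Cd22 (2.27 ± 1.02, 0.318) reached an unadjusted p under 0.05, beside 14.7% of genes. Male and female controls differed in 0 of the 5 tested members by edgeR or DESeq2, beside 2.83% of all genes, and 0 had an unadjusted p under 0.05, beside 14.9%. The largest of those differences was 1.22 for Cd22 (edgeR adjusted p = 0.586). Cxcr5, below the filter, did not overlap, with 2 to 5 reads in male and 0 to 1 in female controls, beside 8.54% of the 24686 genes with a read in a control in that direction.

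The 8 markers other than Cxcl13 varied together, mostly through the outlying pair. Their summed level was 0.39, 0.631, 0.898 and 1.65 CPM in female controls, 1.1, 2.63, 10.1 and 15.9 CPM in female sedentary pain and 0.39 to 2.63 CPM over the 22 libraries outside the pair. Over the 24 libraries the 28 pairs of these 8 genes had Pearson correlations of log2(CPM + 0.1) from 0.495 to 0.882, with a median of 0.653. Over the other 22 libraries the correlations ran from -0.0649 to 0.669, with a median of 0.264. Cxcl13 correlated with each of the 8 at 0.301 to 0.607 (median 0.507) over 24 libraries and at -0.127 to 0.495 (median 0.293) over 22. These points share libraries and their depth, and the correlations are given as descriptions.

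**Figure D3:**
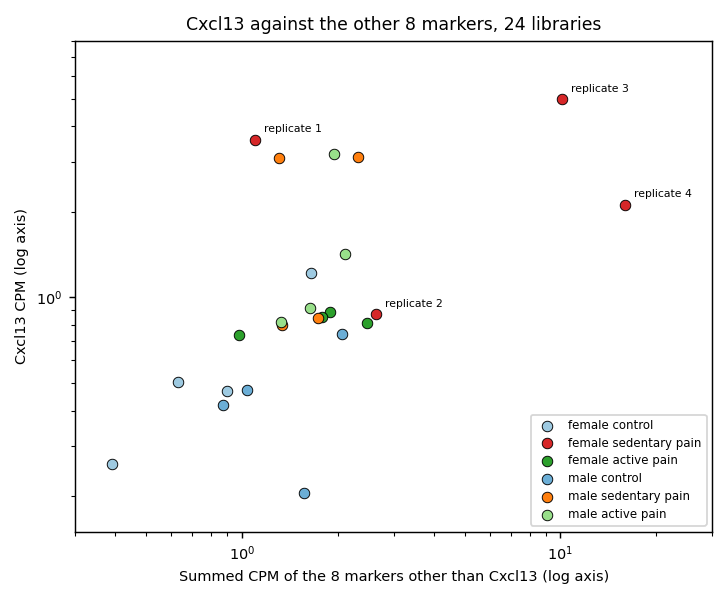
Each point is 1 of 24 libraries, with the summed CPM of the 8 other markers on the horizontal axis and Cxcl13 CPM on the vertical axis, both on log axes. Female sedentary pain replicates 3 and 4 lie far to the right (10.1 and 15.9 CPM), and libraries with Cxcl13 above 3 CPM also occur at low sums, among them female sedentary pain replicate 1 (1.1 CPM).

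The genes most like the members over all 24 libraries were found among 16859 genes with a mean of at least 0.1 CPM. For the summed 8 markers they were Gm5831 (Pearson r = 0.915), Gpr18, a lymphocyte receptor (0.914), H2-Oa, a chain of the B cell class II chaperone H2-O (0.913), Plxnb2, a semaphorin receptor (0.903), and Pigz (0.899). Gpr18 was at 8.0 and 13.7 CPM in female sedentary pain replicates 3 and 4 and at most 0.409 CPM elsewhere, and H2-Oa at 2.14 and 4.41 CPM against at most 0.323 CPM. For Cxcl13 the most similar genes were Siglec1, a macrophage sialic acid receptor (0.836), Kif23, a kinesin of cell division (0.832), Tlr9, a receptor for DNA (0.826), Pik3ap1, an adaptor of PI3 kinase (0.82), and Gm1966 (0.811). Over the 22 libraries without that pair, the same genes had correlations of 0.65 to 0.729 with the summed 8 markers and of 0.776 to 0.81 with Cxcl13. The genes were picked over all 24 libraries, which include these 22, so these values are no separate check of the likeness. Siglec1 was at 37.0 and 25.9 CPM in the same 2 libraries and from 0.75 to 10.4 CPM in the others.

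Lists of related genes were then read in the same fits. Of 27 other B lineage genes 12 were tested in female sedentary pain against control: 6 rose, 1 fell, and the median log2 fold change was 2.22, beside -0.02 over all genes. The list counts of this comparison stand beside the 19.6% of all genes tested that rose. A listed gene could pass the low-count filter through the group where it was high, so counts and medians of tested genes are partly set by the filter. Cd180, a toll-like receptor homologue of B cells and myeloid cells, rose by 4.49 ± 0.78 (SE, edgeR adjusted p = 0.00323), and Igkc, the kappa light chain, by 3.97 ± 1.24 (0.0311). Ebf1, a B lineage factor also made in fat and stromal cells, fell by 0.92 ± 0.29 (edgeR adjusted p = 0.0337). Ighm, the IgM heavy chain, had 0.67 (edgeR adjusted p = 0.295). Of 23 genes of B cell receptor signalling, 21 were tested, 15 rose and 1 fell (median 3.46). Cd81, a partner of the B cell co-receptor made by many cells (0.24, edgeR adjusted p = 0.115), and the transcription factor Nfatc1 (-0.43, 0.103) did not pass. Pik3cd, a PI3 kinase subunit of leukocytes, rose by 1.61 ± 0.38 (edgeR adjusted p = 0.0110), and Rasgrp3, a Ras activator, fell by 1.50 ± 0.39 (0.0166). Btk (4.28, edgeR adjusted p = 0.00264) and Syk (3.72, 0.00285), kinases that myeloid cells also make, were picked after their values were seen. The tested genes Blnk, Btk and Cd72 are in both lists.

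Lists of follicle biology moved in part. Of 13 plasma cell genes 7 were tested and 3 rose (median 0.82), among them Xbp1, a secretory cell factor, by 0.54 ± 0.18 (SE, edgeR adjusted p = 0.0371), and Ighg2c, a heavy chain of IgG, by 2.83 ± 0.77 (0.0184). The syndecan Sdc1 (0.82, edgeR adjusted p = 0.0590) and the factor Irf4 (0.18, 0.823) did not pass. Ighg genes are alike in parts of their sequence, so their reads may be split between copies and these values are uncertain. Of 10 genes of the germinal centre and follicular helper T cells 3 were tested and 2 rose, S1pr2 (1.94 ± 0.41, edgeR adjusted p = 0.00671) and the IL-21 receptor Il21r (6.03 ± 0.86, 0.00261). Bcl6, the master factor of germinal centres that other tissues also make, did not pass (-0.29, edgeR adjusted p = 0.448), and Icos was below the filter, with 89 and 107 reads in female sedentary pain replicates 3 and 4 and at most 9 elsewhere. Of 15 genes that organise lymphoid tissue 10 were tested and 7 rose (median 1.72), among them the noncanonical NF-kB subunits Nfkb2 (2.08 ± 0.28, edgeR adjusted p = 0.00261) and Relb (1.84 ± 0.25, 0.00261) and the lymphotoxin receptor Ltbr (0.56 ± 0.16, 0.0246). The chemokine Cxcl12 did not pass (0.19, edgeR adjusted p = 0.460). Of 10 genes of high endothelium and follicular dendritic cells 3 were tested and 2 rose, among them Ubd, a ubiquitin-like protein (4.81 ± 1.47, edgeR adjusted p = 0.0289). Mfge8, a bridging protein for dying cells, did not pass (-0.16, edgeR adjusted p = 0.577), and Fut7 was below the filter, with 76 and 104 reads in that pair and at most 8 elsewhere.

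Markers of lymph node structures stayed near 0 reads. Ccl21a and Chst4 were at 0 in all 24 libraries, Glycam1 and Madcam1 had at most 2 reads in any library, Ccl19 and Cr2 at most 4 and Fcer2a at most 6. Igkc was high in the same pair as the members, with 31.5 and 74.2 CPM in female sedentary pain replicates 3 and 4 and 0.294 to 4.1 CPM elsewhere.

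Genes of other immune cells were high in that pair as well. The summed T cell list was at 114 and 166 CPM in female sedentary pain replicates 3 and 4 and at 2.23 to 11.1 CPM in the other 22 libraries, and the macrophage and monocyte list at 4740 and 7070 CPM against 83.6 to 984 CPM. Among those 22, female sedentary pain replicate 2 (984 CPM) and male sedentary pain replicate 1 (970 CPM) were highest in the macrophage list. Cd3e, a T cell receptor chain, had 168 and 337 reads in the pair and at most 15 elsewhere. The skeletal muscle list summed to 108000 and 102000 CPM in the pair and to 128000 to 219000 CPM elsewhere, and the muscle actin Acta1 had 19400 to 46600 CPM over all libraries, so each held muscle RNA. In female sedentary pain against control 9 of 18 T cell genes were tested and 8 rose (median 4.35). A gene could enter that test through the outlying pair, so this share and median are partly set by the filter. Lck was at 5.29 ± 1.12 (SE, edgeR adjusted p = 0.00657), Trbc2 at 4.95 (0.0152) and Tcf7 at 3.36 (0.0148), while Cd247 did not pass (1.53, 0.0775). Of the macrophage genes 15 of 16 rose (median 4.31), with Lyz2 at 4.48 ± 0.83 (SE, edgeR adjusted p = 0.00403) and the complement genes C1qa, C1qb and C1qc at 3.84, 4.17 and 3.83. Of 6 dendritic cell genes tested 3 rose, among them Bst2 (3.09, edgeR adjusted p = 0.00315) and Itgax (3.74, 0.00668), and Zbtb46 (-0.06, 0.804) and Cd209a (0.25, 0.659) did not pass. Of 10 muscle genes 1 rose, Des by 1.03, and 1 fell, Myh2 by 1.74 on the log2 scale, both named after their values were seen. Myh4 (-0.61), Acta1 (-0.24), Ckm (-0.25) and Tnnt3 (-0.18) did not pass. The part of these other cells in the members' values was not tested.

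**Figure D4:**
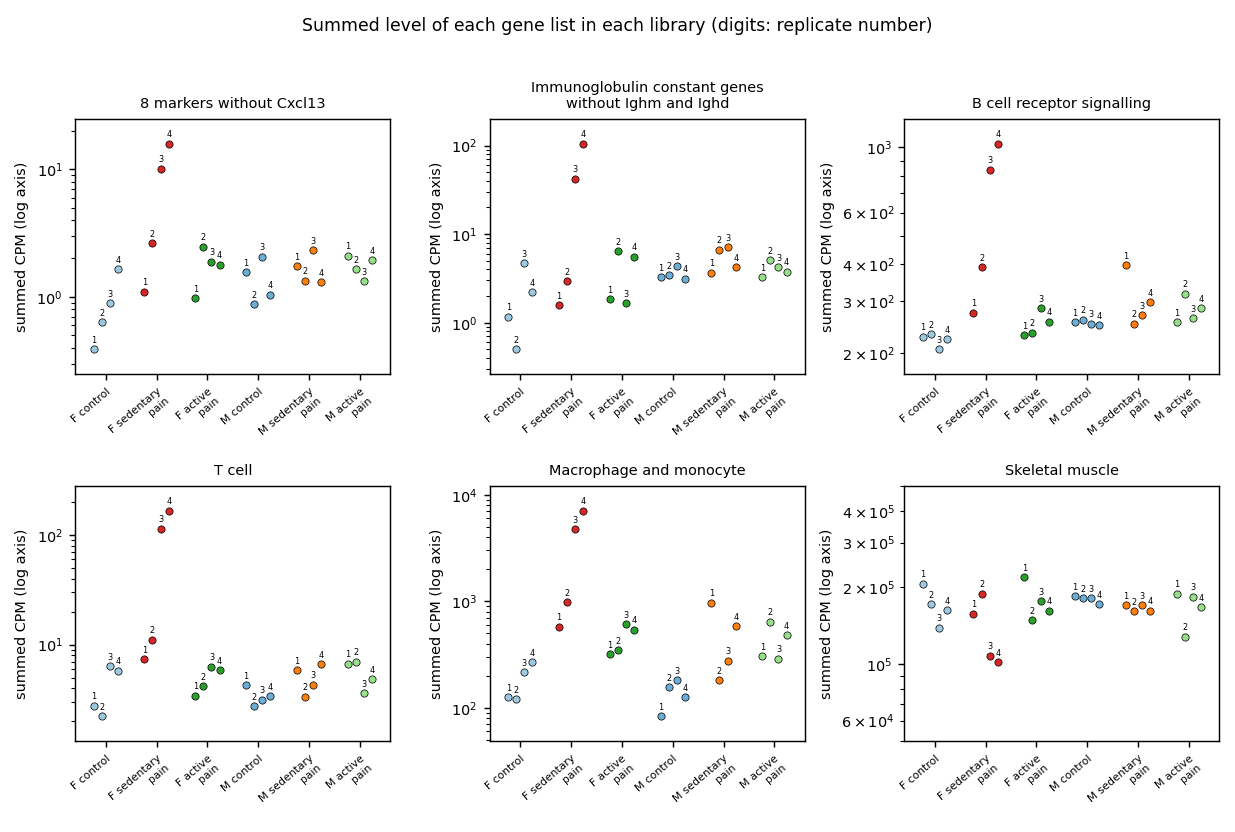
Summed CPM (log axes) of each gene list in every library, grouped as in the plot of single markers, with digits for replicate numbers. Female sedentary pain replicates 3 and 4 are highest in the T cell list (114 and 166 CPM) and the macrophage list (4740 and 7070 CPM) and lowest in the skeletal muscle list (108000 and 102000 CPM).

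Without both female sedentary pain replicates 3 and 4, 4 of 13 tested B lineage genes rose in female sedentary pain (median 0.30), 11 receptor signalling genes (median 1.63), 1 plasma cell gene, 1 germinal centre gene, 4 organiser genes (median 1.61), 1 of 3 high endothelium and follicular dendritic cell genes (median 0.06, from 4.81 with the pair), 1 of 7 dendritic cell genes (median 0.93, from 2.47), 1 muscle gene (with 0 lower), 0 T cell genes (median 0.99) and 14 macrophage genes (median 1.91), where 9.59% of all genes changed in either direction. Between the female pain groups with all libraries, 9.41% of all genes tested fell in active pain. Of the lists, 5 of 12 B lineage, 15 of 21 receptor signalling and 5 of 10 organiser genes fell. So did 7 of 9 T cell, 13 of 16 macrophage, 1 of 7 plasma cell and 2 of 3 germinal centre genes. The high endothelium and follicular dendritic cell list had 2 of 3 lower and the dendritic cell list 3 of 6. Without that pair 0 genes of each list fell, where 0 of all 15015 genes (0%) passed. The list medians between these groups went from -2.28 to -0.31 for B lineage, -2.36 to -0.85 for receptor signalling, -1.09 to -0.80 for organiser, -4.40 to -1.13 for T cell and -2.66 to -0.56 for macrophage genes when the pair was left out. In female active pain against control, and in the 3 male comparisons, 0 genes of these lists passed in edgeR. In active pain against control over both sexes 0 list genes passed with all libraries, and without the pair 12 macrophage, 4 receptor signalling, 3 B lineage, 1 germinal centre and 1 organiser gene rose, beside 0.871% of all genes. The macrophage median there was 1.62 with the pair and 1.63 without it. In male sedentary pain the list medians were 2.01 for macrophage genes, 1.31 for receptor signalling, 0.64 for other B lineage genes and 0.13 for T cell genes, beside -0.0081 over all genes. The T cell median rests on 3 of 18 genes tested in males, against 9 in females, so the 2 cover different genes.

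**Figure D5:**
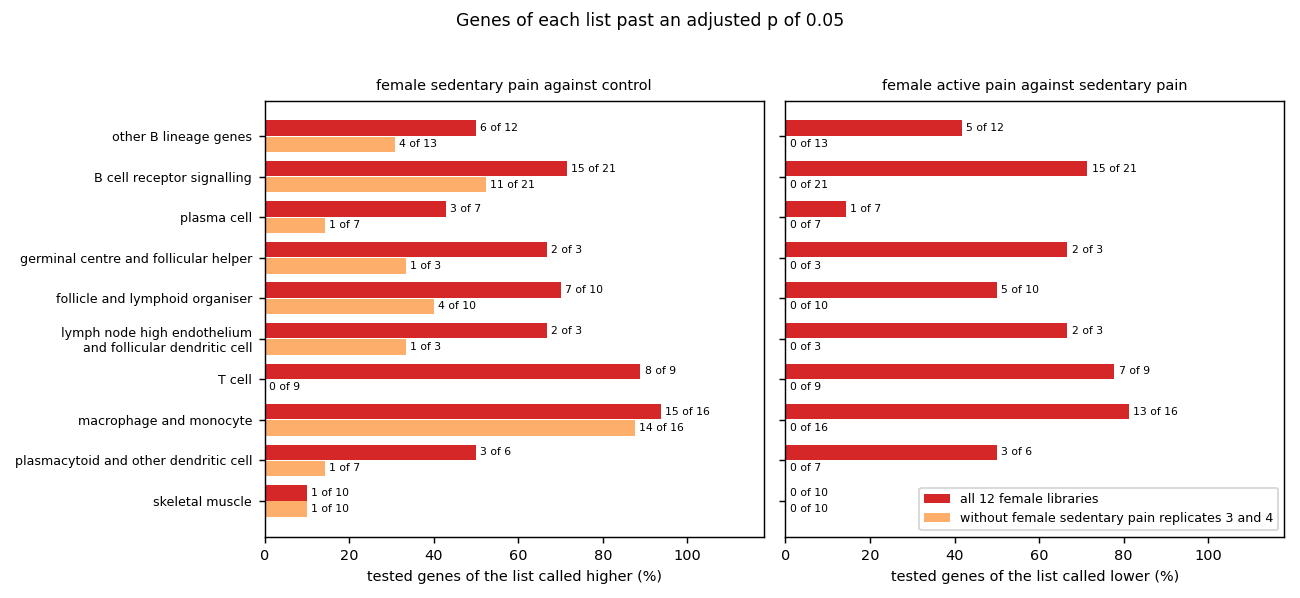
Bars from 0 give the share of each list's tested genes that passed an adjusted p of 0.05, higher in female sedentary pain against control and lower in female active against sedentary pain, with and without female sedentary pain replicates 3 and 4. A listed gene could be tested through the group where it was high, so the shares are partly set by the low-count filter. Of the macrophage list 15 genes rose with the pair and 14 without it, and of the T cell list 8 and 0.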

How the data were processed

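Per the labels' protocols, RNA was extracted with a kit for fibrous tissue and cleaned again, and 0.5 µg of total RNA per library went into Illumina TruSeq stranded libraries read as 100-base pairs on a NovaSeq. The authors deposited raw read counts per Ensembl gene, 1 file per library. The submitters' processing notes name mm10, GRCm38.p6, HISAT2 2.1.0, Salmon 0.9.1, featureCounts and DESeq2 1.24.0, without saying which made the counts, and the use of strand is not given in the sources used here.

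Of 54532 identifiers, 54409 had a symbol and 54495 a position in GENCODE M21. Low counts were removed with edgeR's filterByExpr at its minimum of 10 counts, taking the groups into account; the rest were scaled by TMM and tested with edgeR 4.0.16 quasi-likelihood F tests (robust, two-sided) in R 4.3.3, with Benjamini-Hochberg adjustment over all genes tested and a threshold of 0.05. Each sex was fitted alone (12 libraries, 3 groups). Averages over the sexes, sex differences and control levels used all 24. SEs follow from the F statistic. Values per kilobase use the union of a gene's exons. Summaries used Python 3.11.15, pandas 2.3.3 and NumPy 2.4.6, and figures matplotlib 3.10.9. The script was tested on simulated counts.

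All 9 members are named, with up to 4 genes per list by highest mean CPM and the 5 genes most correlated with the members; others are named as picked later or as markers of lymph node and immune cells. Some genes of the lists are not reported here. Members, lists and tests were chosen with earlier results of these data known. Alternatives were DESeq2 1.42.0, RLE scaling, no filter, other sample sets, the replicate block, a term for the library-number split, replicate subsets and each library left out.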

Additional observations from a re-analysis of the deposited data

Results flagged for a closer look

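Among the 54 sets of 4 libraries formed by the 9 members and 6 groups, 2 held a library far from the other 3 by Dixon's criterion, which chance alone meets in about 1 of 20 sets. Ms4a1 was at 0.396 CPM in male active pain replicate 4 (10 reads), the highest of its group. Cd79a was at 0.407 CPM in male control replicate 3 (12 reads), the highest of its group. The outlying pair of female sedentary pain is 2 of 4 libraries and so cannot meet this criterion. With all libraries, no difference between the sexes passed its test in any of the 5 members tested.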

How the results depend on the processing

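The number of members past the threshold stayed within 1.5 times its value in 318 of 363 alternatives, and 737 of 848 values of single markers kept direction and side of the threshold. For female sedentary pain against control, where 3 members passed, the count was 6 with no filter. It was 5 with all 24 libraries in 1 fit, Cd22 among them, tested there only through sedentary pain libraries. It was 0 in replicates 1 and 2, 8 in replicates 3 and 4, and 2 to 5 with 1 library left out. Of the 8, 4 passed the filter through the outlying pair alone, and Cd79a also needed that pair to pass it. For female active against sedentary pain, where 1 passed, the count was 3 with DESeq2, 0 with no filter and 0 with the 2 groups alone. It was 4 with all 24 libraries, a fit that tests Cd22 only through sedentary pain libraries. It was 0 in replicates 1 and 2, 4 in replicates 3 and 4 (Cd22 and Blk among them, past the filter through the outlying pair alone), and 0 to 4 with 1 library left out. For both sexes in sedentary pain, where 5 passed (Cd22 tested only through sedentary pain libraries), it was 3 with no filter, 0 in replicates 1 and 2 and 3 to 5 with 1 library left out. Where 0 passed, DESeq2 gave 1 in male sedentary pain. Replicates 3 and 4 gave 2 for both sexes between the pain groups (0 to 2 with 1 library left out), 2 for the sex difference of sedentary pain and 1 for that of active against sedentary pain. Without both female sedentary pain replicates 3 and 4, with and without the filter and chosen after seeing the data, 0 members passed in female sedentary pain, 0 between the female pain groups and 2 for both sexes in sedentary pain. Fewer libraries or more genes tested enter several of these fits by construction, and the cause was not tested otherwise. The share of all genes is not given for replicates 1 and 2, so the counts of 0 there are no result about the members.

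With the replicate block, 4 members passed in female sedentary pain against control, 0 between the female pain groups and 5 for both sexes in sedentary pain, and 0 in the others. In no pair of groups did all 4 same-numbered libraries deviate together with a correlation over 0.1 (means from -0.162 to 0.222), and at most 3 of 4 correlated best with their own number, so the numbers were not read as pairs.

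Signs that turned belonged to values that did not pass. In replicates 3 and 4, Cd79a was at -0.055 in female active pain against control, at -0.67 in male active pain against control and at -0.69 between the male pain groups, and the sex difference of Cxcl13 in sedentary pain was 0.31. In replicates 1 and 2, Ighd was at 0.27 between the female pain groups and 0.37 for the sex difference of sedentary pain, Cd79b at 0.27 in male active pain against control and 0.15 between the male pain groups, and Cxcl13 at 0.49 between the male pain groups. Without both outlying libraries, values between the female pain groups were 0.0071 for Cd79a (0.034 with no filter), 0.025 for Cd79b with no filter and 0.32 for Ighd (0.35), and the sex differences of sedentary pain were 0.26 for Cxcl13 (0.27) and 0.40 for Ighd (0.45). With 1 library left out, male sedentary pain against control ran from -0.26 to 0.42 for Cd79a and from -0.0092 to 0.43 for Cd79b. Male active pain against control ran from -0.046 to 0.56 for Cd79a and from -0.63 to 0.12 for Cd79b. Between the male pain groups Cd79a ran from -0.15 to 0.52 and Ighd from -0.023 to 0.47, and the sex difference of Cxcl13 in sedentary pain ran from -0.65 to 0.33. Depth limits the members: 5 of 9 were below the filter in each sex, with 0 to 5 reads in single female control libraries.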

Other observations

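Antibody constant regions were compared between the male and female controls, where none of the members differed by the test. Ighm was well above the members in every library, with 301 to 2579 reads. It was at 48.1, 44.4, 18.7 and 18.0 CPM in female controls and at 54.5 to 81.6 CPM in male controls, a log2 difference of 0.97 ± 0.40 (male minus female, SE) that missed the threshold (edgeR adjusted p = 0.243). Ighg2c, an IgG heavy chain, was at 0.477, 0.126, 0.273 and 0.244 CPM in female controls and at 2.22, 2.94, 2.07 and 2.45 CPM in male controls, with no overlap. Male controls were higher in Ighg2c by 3.10 ± 0.63 on the log2 scale (edgeR adjusted p = 0.00678). Igkc, the kappa light chain, had -0.80 in the same comparison (edgeR adjusted p = 0.691). Reads of the Ighg genes may be split between similar copies, so the Ighg2c value is uncertain as to the gene.

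Igha, the IgA heavy chain, picked after its values were seen, had 167 and 224 reads in female sedentary pain replicates 3 and 4 and at most 30 in the other 22 libraries. Ltb, a lymphotoxin chain made by lymphocytes and picked in the same way, had 357 and 676 reads there and at most 121 elsewhere. Ubd had 273 and 676 reads against at most 18.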
